A study of Sesuvium portulacastrum with 18 samples.

Results

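Of the 89295 transcripts with a normalized value in shoots of Sesuvium portulacastrum, a salt-tolerant plant (halophyte), 40 met a rule for a raised level. The level was read 8 h and 24 h after the roots were placed in NaCl and set against separate plants at 0 h. A transcript was taken into this set when its mean was at least 5 normalized CPM (counts scaled to the size of each library and between libraries) at 8 h and at 24 h, when each of these means was at least 2 times the 0 h mean, and when all 6 salt libraries lay above all 3 libraries of 0 h. The transcripts were thus chosen by their measured values at 8 h and 24 h against 0 h, and the rises themselves are given as a description without a test. Of the 16285 shoot transcripts with means of at least 5 at both salt times, 544 reached 2 times the 0 h mean at 8 h, 128 reached it at 24 h, and 47 reached it at both. Single values that overlapped between salt and 0 h removed 7 of the 47. A further 783 transcripts met all of the rule but the 2-fold minimum.

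The plants were 15-day-old seedlings raised hydroponically from stem cuttings in diluted Murashige and Skoog medium. One set was moved to control medium and harvested at once (0 h), and the other sets were moved to medium with 250 mM NaCl and harvested after 8 h or 24 h. Shoot and root each gave 9 libraries, 3 biological replicates at every time, and the series holds 18. The labels give no unstressed plants at 8 h or 24 h, so salt, the time since the change of medium and the hour of harvest cannot be told apart.

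Salt in the root medium first withdraws water from the plant and later loads its leaves with sodium. Halophytes are known for keeping sodium out of the cytosol by exporting it and by storing it in the vacuole, for making compatible solutes that balance the osmotic pressure, and for abscisic acid signalling that closes stomata and turns on protective genes. Transcripts raised both at 8 h and at 24 h are of interest because they may belong to a response that lasts beyond its first hours. Levels between the sampled times were not measured. The files name each transcript by an ID alone and pair no ID with a gene name, a function or a sequence. The 40 transcripts can therefore not be assigned to these processes here, no sequence is printed, and the shoot label was not checked against tissue markers.

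Shoot libraries held 10050233 to 15068602 estimated counts. All 40 transcripts passed the filter on low counts that left 40220 shoot transcripts for testing, none had a count of 0 in any library, and the lowest single count was 10. Replicates of a time differed by more than counting noise in every pair, with a chi-square per degree of freedom between 3.19 and 11.1, so no libraries were merged.

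Most of the 40 transcripts rose only a little past the 2-fold minimum. The ratio of the 8 h mean to the 0 h mean ran from 2.08 to 19.1 with a median of 2.49, and the ratio of the 24 h mean to the 0 h mean ran from 2.00 to 10.7 with a median of 2.325. At 8 h 13 transcripts reached 3 times and 5 reached 4 times the 0 h mean, and at 24 h these numbers were 10 and 4. The smaller of the pair of ratios was under 2.5 in 34 transcripts and at least 3 in only 3 of the 40. As these are whole shoots, more cells that use a transcript and more RNA per cell cannot be told apart.

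The closeness to the threshold shows in the transcripts on either side of it. S_Transcript_58338.p2 (smaller ratio 2.00) and S_Transcript_19408.p1 (2.02) lay just inside, and S_Transcript_412690.p1 and S_Transcript_153286.p1 (both 1.97) met every other criterion and lay just outside. In S_Transcript_58338.p2 the libraries held 2.603, 4.467 and 5.038 normalized CPM at 0 h, 14.2, 7.52 and 8.24 at 8 h, and 8.045, 8.50 and 7.68 at 24 h. One 8 h library stood far above the other pair, and the 24 h libraries lay close together. S_Transcript_19408.p1 held 122, 162 and 161 at 0 h, 371, 326 and 295 at 8 h, and 338, 275 and 286 at 24 h. Its 8 h and 24 h values overlapped, and the difference between these times did not pass the test (adjusted p = 0.56, edgeR's quasi-likelihood test). With library size alone its log2 fold change from 8 h to 24 h was -0.37 in place of -0.115, with an adjusted p of 0.0298 in edgeR's test.

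The 40 transcripts together took 0.0946 ± 0.0121% of all counts at 0 h, 0.293 ± 0.0069% at 8 h and 0.237 ± 0.00514% at 24 h (SD, n = 3). These shares rest on library size alone. In normalized CPM, on which the set was chosen, the sums were 999.5 ± 164.7, 2635 ± 94.1 and 2500 ± 56.4, closer together at the salt times. The rise over 0 h was set by the choice. Only 3 transcripts, S_Transcript_58892.p1, S_Transcript_76501.p1 and S_Transcript_19408.p1, held 57.2% of the set's normalized CPM at 0 h, 49.97% at 8 h and 55.3% at 24 h. Read counts were not divided by transcript length, so these shares say how many reads fell on an ID and do not rank the transcripts by copy number. The 0 h means of the set ran from 2.11 to 323 normalized CPM with a median of 6.23, and 18 of the 40 lay under 5. The coefficient of variation over 3 libraries had a median of 16.7% at 0 h, 17.9% at 8 h and 17.01% at 24 h.

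**Figure D1:**
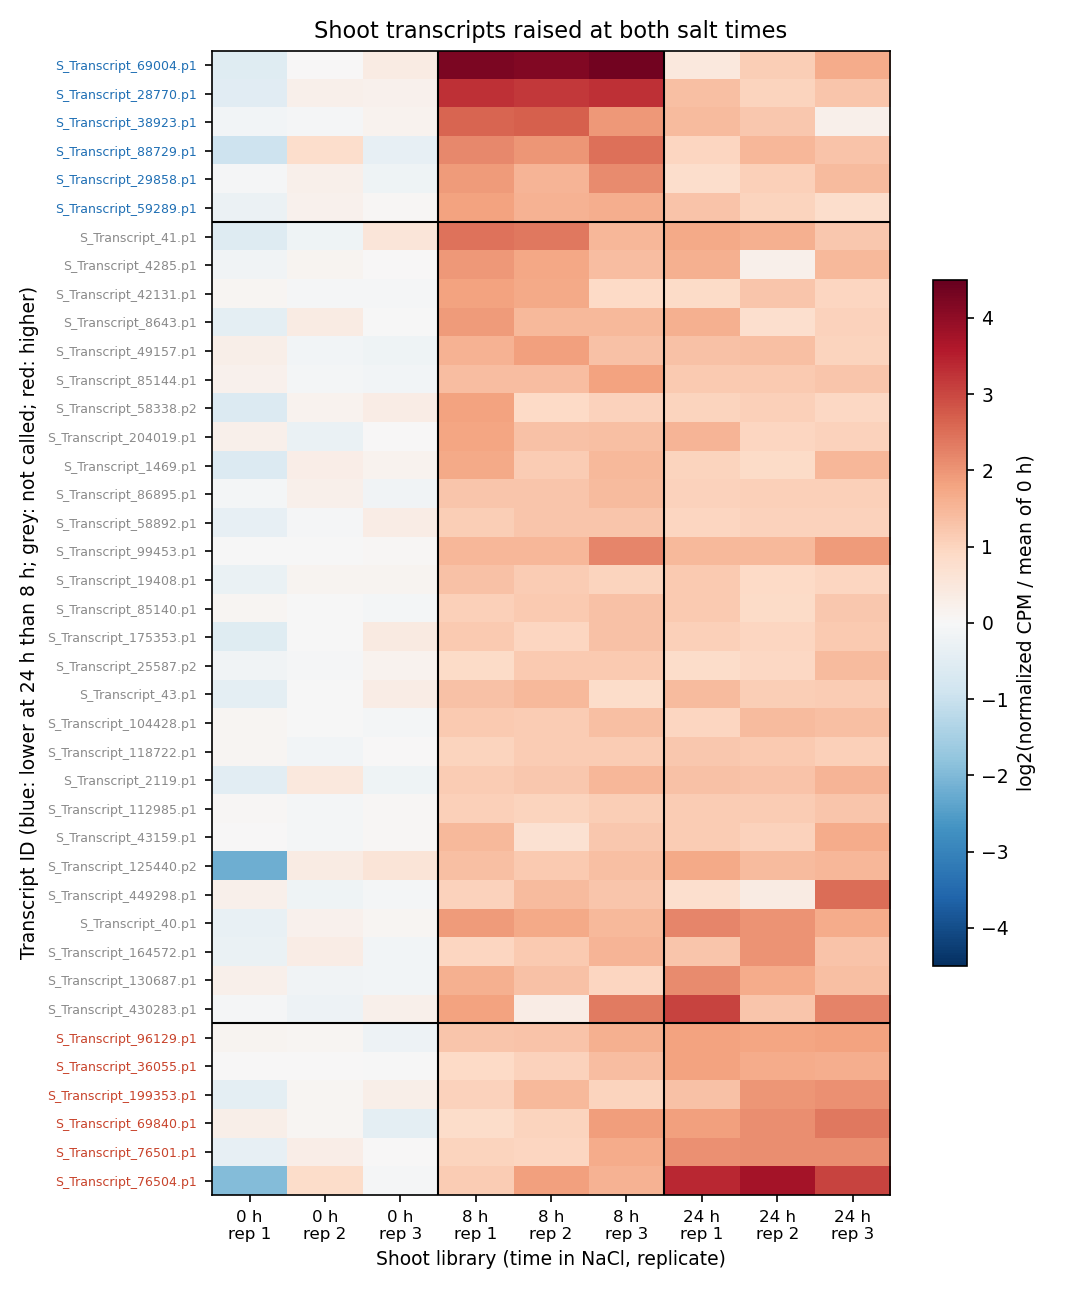
Each row is one of the 40 transcripts and each column one of the 9 shoot libraries, and the colour gives log2 of the normalized CPM over the transcript's own 0 h mean. The 6 transcripts with blue names were called lower at 24 h than at 8 h, the 6 with red names higher, and the 28 with grey names were not called. Within each row all salt columns are redder than all 0 h columns because the rule requires it.

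The rule did not compare 24 h with 8 h directly, since both times entered it alike. That comparison asks whether the raised level held, rose further or moved partly back during the first day. The rule kept both means at least 2 times the 0 h mean, so a full return to the 0 h level could not appear. Of the 40 transcripts, 6 were higher at 24 h than at 8 h, 6 were lower and 28 were not called at an adjusted p under 0.05 (edgeR's quasi-likelihood test, adjusted over all 40220 shoot transcripts). These 12 of 40 compare with 27.8% of all tested shoot transcripts (15.2% higher, 12.6% lower) called and with 38.7% of the 16285 with means of at least 5 at both salt times. The members' share thus lay near the background and is no result about them. The median log2 fold change of the 40 was -0.07, against -0.01 for all tested transcripts, and 15 of the 40 (37.5%) had 8 h and 24 h values that did not overlap, against 43.7% of all tested.

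The even split depended on the scaling. With library size alone, which moved the median log2 fold change of all tested transcripts at 24 h against 8 h to -0.27, 2 members were higher and 14 lower at 24 h. DESeq2 itself, and edgeR run on DESeq2's size factors, each gave 6 higher and 6 lower. The number higher was 3 without 8 h replicate 1 and 3 without 24 h replicate 3, and the number lower stayed between 4 and 7 when any 1 of the 9 libraries was left out.

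The 6 transcripts that fell from 8 h to 24 h included those with the steepest early rise. S_Transcript_69004.p1 held 2.003, 2.895 and 3.779 normalized CPM at 0 h, 55.15, 52.44 and 58.14 at 8 h, and 4.063, 6.245 and 9.134 at 24 h. The 8 h libraries stood far above all others, and the lowest 24 h library lay only just above the highest 0 h library. Its mean was 19.1 times the 0 h mean at 8 h and 2.24 times at 24 h, and the log2 fold change from 8 h to 24 h was -3.08 with a standard error (SE) of 0.23 and an adjusted p of 9.71e-07 in edgeR's test.

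S_Transcript_28770.p1 followed the same course at a higher read count. Its libraries held 12.0, 20.1 and 19.9 normalized CPM at 0 h, 169.3, 156.4 and 170.5 at 8 h, and 43.96, 35.04 and 40.71 at 24 h, so the 3 times did not overlap. The 8 h mean was 9.55 times and the 24 h mean 2.30 times the 0 h mean, and the log2 fold change from 8 h to 24 h was -2.02 with an SE of 0.15 and an adjusted p of 1.07e-06 by the same edgeR test. In the other 4 transcripts of this class the log2 fold change from 8 h to 24 h lay between -1.39 and -0.60. All 6 had a 24 h mean between 2.05 and 2.40 times the 0 h mean, close to the minimum that the rule set.

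The 6 transcripts that rose further had modest ratios at 8 h, between 2.17 and 2.91 times 0 h, and ratios at 24 h between 3.245 and 10.7. S_Transcript_76504.p1 held 1.00, 6.87 and 3.78 normalized CPM at 0 h, 8.63, 13.8 and 11.4 at 8 h, and 40.55, 52.65 and 31.68 at 24 h. The values of the 3 times did not overlap. The 0 h libraries differed several-fold among themselves, by more than the 2.91-fold step of the means to 8 h. From 8 h to 24 h it rose by a log2 fold change of 1.91 (SE 0.36, adjusted p = 0.0017, edgeR).

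S_Transcript_76501.p1, whose ID number lies close by, held 77.6, 123 and 102 normalized CPM at 0 h, 201, 196 and 320 at 8 h, and 421, 434 and 427 at 24 h. The 24 h libraries were nearly equal and lay above every 8 h library, of which replicate 3 stood apart. The log2 fold change from 8 h to 24 h was 0.87 (SE 0.19, adjusted p = 0.00412, edgeR). Over the class it ran from 0.45 to 1.91.

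**Figure D2:**
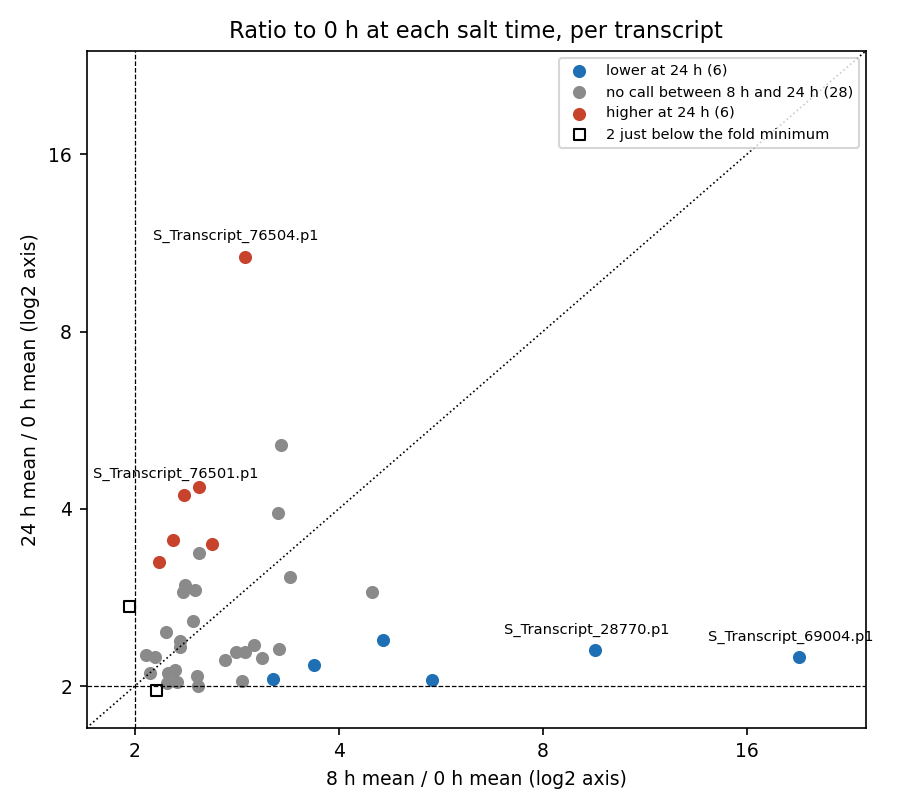
Each point is a transcript, with the ratio of its 8 h mean to its 0 h mean on the horizontal axis and that of its 24 h mean on the vertical axis, both log2 axes, and the colour gives the 24 h against 8 h call. Points crowd at the corner of the dashed 2-fold limits. The 6 blue points run along the lower limit out to 19.1, and the highest red point stands at 10.7 on the vertical axis. Open squares are the 2 transcripts just below the fold minimum.

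Among the 28 transcripts without a call between the salt times, the log2 fold change at 24 h against 8 h lay between -0.60 and 0.68 and under 0.5 in size in 26, and the 8 h and 24 h values overlapped in 23. The standard errors in this class ran from 0.11 to 0.45, so a missed threshold does not show that the times were equal. S_Transcript_58892.p1, which took the most reads of the set, held 251, 312 and 405 normalized CPM at 0 h, 699, 766 and 774 at 8 h, and 632, 666 and 667 at 24 h. Its salt values lay well above 0 h at both times and its 24 h libraries just below its 8 h libraries (log2 fold change -0.16, SE 0.13, adjusted p = 0.41, edgeR). With library size alone this fall was -0.42 with an adjusted p of 0.013 in edgeR's test.

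S_Transcript_430283.p1, with the second largest 24 h ratio (5.14), was uneven between replicates. It held 3.304, 2.895 and 4.001 normalized CPM at 0 h, 11.86, 4.278 and 17.36 at 8 h, and 28.28, 8.07 and 16.1 at 24 h. Replicate 2 held the lowest value at 0 h and at both salt times, and at 8 h it lay just above the highest 0 h value. The difference between the salt times did not pass the test (edgeR, adjusted p = 0.304, with a log2 fold change of 0.68 and an SE of 0.45).

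**Figure D3:**
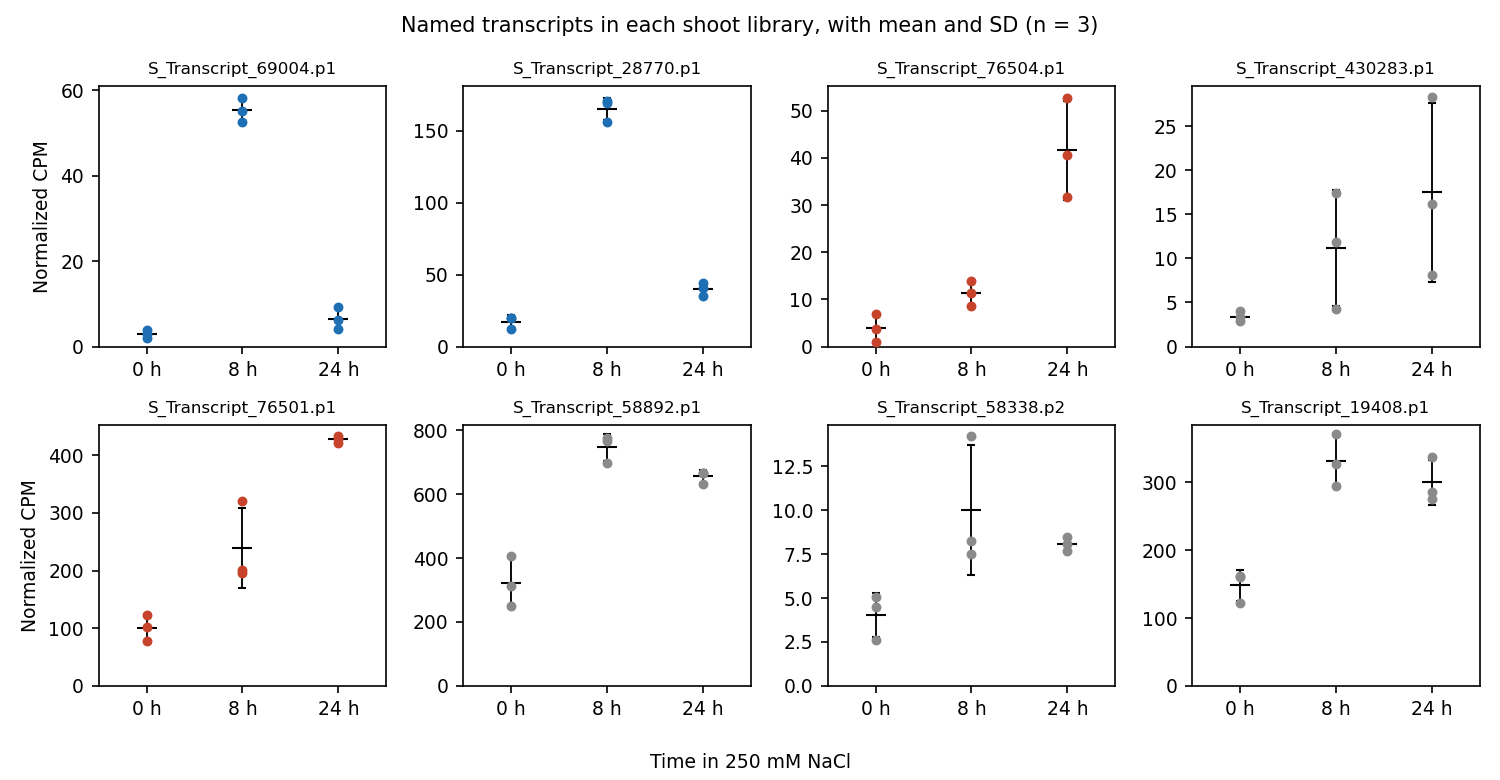
Normalized CPM of 8 named transcripts at 0 h, 8 h and 24 h, with a point per library, a dash for the mean and bars for the SD of 3 libraries, each panel on its own axis from 0. S_Transcript_69004.p1 and S_Transcript_28770.p1 peak at 8 h, S_Transcript_76504.p1 and S_Transcript_76501.p1 are highest at 24 h, and the salt times of S_Transcript_19408.p1, S_Transcript_58338.p2 and S_Transcript_430283.p1 overlap.

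Meeting the rule and passing a test against 0 h were not the same thing. In edgeR's test 39 of the 40 were called higher at 8 h than at 0 h, where 10.6% of all tested shoot transcripts were, and 38 were called higher at 24 h, where 2.77% were (4.29% lower and 7.07% in either direction). The rule used these contrasts, so nothing is read from the counts. The transcripts that missed a call were picked out after their values were seen. S_Transcript_449298.p1, not called at either time, owed its 24 h mean largely to 1 library, with 7.72, 5.90 and 26.3 normalized CPM, against 5.41, 4.05 and 4.37 at 0 h. S_Transcript_88729.p1 was not called at 24 h, where it held 4.14, 5.98 and 5.15 against 1.10, 3.64 and 1.63 at 0 h.

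To read the rises in libraries that the choice had not used, the rule was applied without 1 replicate number at all 3 times and the ratios were then taken in the libraries left out. Without replicate 1 the rule chose 44 transcripts, and 35 of them were above 0 h at both salt times in the replicate 1 libraries. Without replicate 2 it was 50 of 58, and without replicate 3 it was 52 of 63. Among all tested transcripts with salt means of at least 5, 5577, 4537 and 3884 of 16285 were above 0 h at both times in the same libraries. Only 26 of the 44, 36 of the 58 and 32 of the 63 chosen transcripts were also members of the set chosen from all libraries. The shares therefore describe what the rule picks and not the members alone.

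The rises were smaller in the libraries left out than in those that made the choice. The median of the smaller ratio was 1.82, 1.69 and 1.61 in the libraries of replicates 1, 2 and 3 when left out, against 2.31, 2.28 and 2.21 in the libraries used for the choice. A ratio of at least 2 at both salt times was held by 17 of 44, 16 of 58 and 21 of 63 chosen transcripts, against 1.22%, 0.375% and 0.663% of tested transcripts with salt means of at least 5. Both ratios of a left-out set share its single 0 h library, for the chosen transcripts as for the others. The replicate numbers only say which libraries were left out together.

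**Figure D4:**
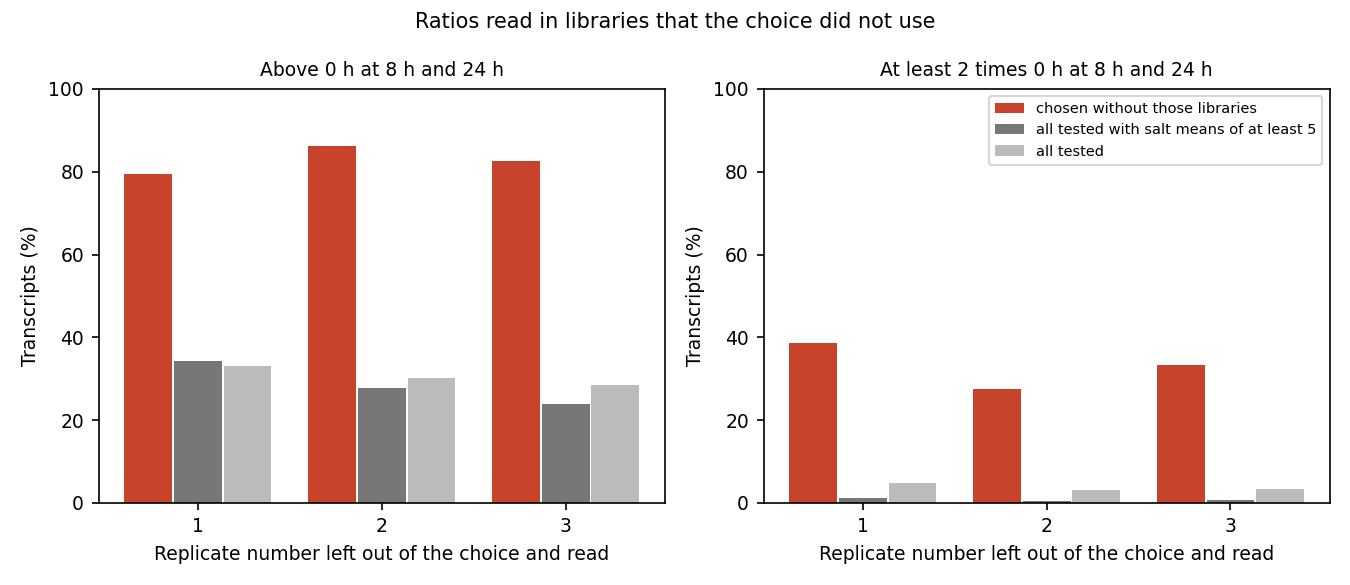
Bars give the share of transcripts above 0 h at both salt times (left) and at least 2 times 0 h at both (right), in the libraries of the replicate number that the choice left out. The chosen transcripts, in red, show 35 of 44, 50 of 58 and 52 of 63 on the left, above both grey bars, which are all tested transcripts and those with salt means of at least 5. Of the 44, 58 and 63 chosen transcripts, 26, 36 and 32 are also members of the set chosen from all libraries.

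The library of 0 h replicate 1 weighed on the set. It held the lowest of the 3 values at 0 h in 22 of the 40 transcripts, against 39.3% of all tested transcripts, and the set's normalized CPM summed to 812 there, against 1065 and 1121 in replicates 2 and 3. Without this library the rule kept 28 of the 40. The 12 lost included 5 of the 6 transcripts that fell from 8 h to 24 h, S_Transcript_69004.p1 and S_Transcript_28770.p1 among them, and none of the 6 that rose further. The smaller ratio to 0 h was 2.05 to 2.40 in those that fell and 2.17 to 2.91 in those that rose. Closeness to the fold minimum was thus not alike, and nothing is read from this contrast. Without 0 h replicate 3 the rule kept 39 and admitted 23 others, 62 in all. In every one of the 9 settings that left out 1 library, 16 of the 40 were kept. The part of this library's depth, the lowest of the shoot set, was not tested.

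Some transcripts with nearby ID numbers were raised as well. Members lay within 3 numbers of another member in 5 cases, S_Transcript_40.p1, S_Transcript_41.p1 and S_Transcript_43.p1 as one run and S_Transcript_76501.p1 with S_Transcript_76504.p1. A further 51 tested transcripts, none of them members, lay within 3 numbers of 32 members, other entries of a member's own number included. Of these, 19 (37.3%) were called higher at 8 h than at 0 h, against 10.6% of all tested, and 11 (21.6%) at 24 h, against 2.77%. At each time most of the 51 were not called higher, and some were called lower at 8 h or at 24 h. These contrasts used the same 0 h libraries that chose the members. The shares of all tested transcripts were not matched for level. The sources used here do not say how the numbers were given. Near-identical transcripts can share reads that the counting splits between IDs, and whether these pairs do was not tested.

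The runs named next were chosen after their values were seen. In the run of low numbers, S_Transcript_43.p1 held 41.25, 55.18 and 70.83 normalized CPM at 0 h, 137.6, 154.5 and 98.35 at 8 h, and 148, 120 and 123 at 24 h. S_Transcript_44.p1, the next number and not a member, rose less, to 1.47 times its 0 h mean at 8 h and 1.38 times at 24 h (adjusted p = 0.00137 and 0.0134, edgeR). S_Transcript_76504.p2, which shares its number with a member but stayed under the level minimum, rose from 0.566 ± 0.2045 to 1.88 ± 0.793 and 4.22 ± 0.775 normalized CPM (SD, n = 3), the same order of times as S_Transcript_76504.p1.

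Other neighbours parted from the member. S_Transcript_42131.p1 was at 2.88 times its 0 h mean at 8 h and 2.04 times at 24 h, whereas S_Transcript_42132.p1 and S_Transcript_42133.p1 stood at 3.32 and 3.41 times at 8 h and at 1.02 and 1.08 times at 24 h. From 8 h to 24 h these neighbours fell by 1.68 and 1.63 on the log2 scale (adjusted p = 2.355e-06 and 1.84e-07, edgeR), and the difference between them and the member was not tested.

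The entries of S_Transcript_125440 went opposite ways at 8 h. S_Transcript_125440.p2, the member, held 6.01, 35.2 and 41.3 normalized CPM at 0 h, 69.53, 62.55 and 71.01 at 8 h, and 89.15, 73.03 and 78.32 at 24 h, with 0 h replicate 1 far below the other pair, and it left the set without that library. S_Transcript_125440.p1 held 100.5, 101.3 and 112.2 at 0 h, 49.8, 59.4 and 61.5 at 8 h, and 128, 129 and 132 at 24 h. It fell by 0.89 on the log2 scale at 8 h (SE 0.09, adjusted p = 1.85e-05, edgeR) and showed no drop in replicate 1 at 0 h. The suffix .p1 was carried by 37 of the 40 members and .p2 by 3, and 86.2% of all tested shoot transcripts carried .p1.

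**Figure D5:**
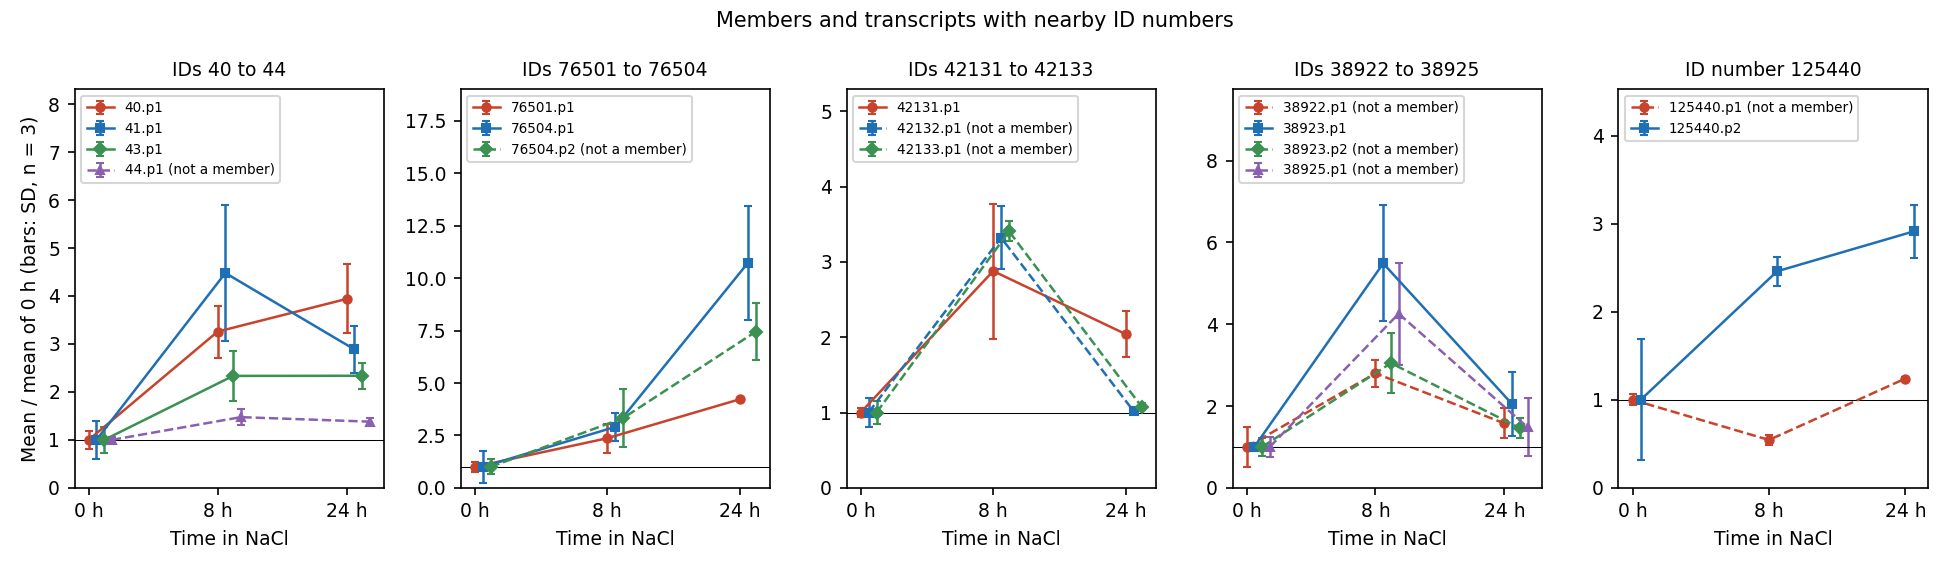
Means at 0 h, 8 h and 24 h over the transcript's own 0 h mean, with SD bars of 3 libraries, for 5 groups of transcripts with the same or nearby ID numbers. Solid lines are members and dashed lines are not. S_Transcript_76501.p1 and its neighbours rise at both steps, S_Transcript_38923.p1 and its neighbours peak at 8 h, S_Transcript_42131.p1 stays at 2.04 at 24 h where its neighbours stand near 1, and the entries of S_Transcript_125440 part at 8 h, at 0.544 and 2.46.

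The mirrored rule, applied to shoot transcripts lowered at both times, gave 206, of which 34 were higher and 29 lower at 24 h than at 8 h, a called share of 30.6%. That lay near the 27.8% of all tested shoot transcripts and is no result about the 206. The same rule in root gave 115 transcripts, of which 3 were higher and 33 lower at 24 h than at 8 h, 31.3% called against 11.4% of all tested root transcripts (5.34% higher, 6.11% lower). The root share was not set against root transcripts of a like level. Root and shoot IDs are separate sets that the files do not link, so whether the 40 shoot transcripts rose in root was not tested, nor was the difference between tissues.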

How the data were processed

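The authors deposited estimated counts per transcript as whole numbers and a normalized signal per transcript. Per the submitters' processing notes, the tools were Trimmomatic, kallisto 0.45 and edgeR 3.40.1, with no roles stated. The sources used here state no assembly, annotation or strand setting. The deposited signal equalled edgeR's TMM-scaled CPM of the counts within 4.37e-11 and is called normalized CPM.

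Members were read from the normalized CPM. Counts, whole as deposited so that rounding changed none, were filtered with filterByExpr (minimum count 10) and fitted with edgeR 4.0.16 in R 4.3.3 (TMM, glmQLFit, glmQLFTest, 9 shoot libraries, 1 mean per time, no covariate). Tests were two-sided with Benjamini-Hochberg adjustment over all transcripts of a tissue. Standard errors come from the size of the log2 fold change over the root of the F statistic. DESeq2 1.42.0, limma 3.58.1 on log2(normalized CPM + 1), other filters and scalings, a replicate block and fits without single libraries were alternatives.

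The members, lists and settings were chosen with earlier results of these data known. Transcripts named by rule were the 2 with the largest ratio at each salt time (0 h mean at least 1), the 2 largest called changes in each direction at 24 h against 8 h, the 2 of highest salt mean and the 2 on each side of the fold minimum. Lists of salt response genes need gene names and were not used. Every column matched 1 library (0 left over).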

Additional observations from a re-analysis of the deposited data

Results flagged for a closer look

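The ratios to 0 h at the 2 salt times differed by the 24 h against 8 h test (edgeR) in 4 of the members named by rule. These 4 were named for the largest called changes in this same test, so the naming fixed that outcome in advance. S_Transcript_69004.p1 had a log2 fold change of -3.08 and S_Transcript_28770.p1 one of -2.02 between 8 h and 24 h. S_Transcript_76504.p1 had one of 1.91 and S_Transcript_76501.p1 one of 0.87. S_Transcript_412690.p1, named from just outside the set, was called too (log2 fold change 0.50, adjusted p = 0.0399, edgeR). It was not called by DESeq2 (adjusted p = 0.0564), by limma (0.054) or in edgeR with library size alone (0.265). In edgeR it also lost the call with the replicate block and with no filter on low counts. The same held without 0 h replicate 2, 8 h replicate 1, 8 h replicate 3 or any 24 h library. It kept the call with DESeq2 size factors, a minimum count of 30 or only the 2 times compared. It also kept it without 0 h replicate 1, 0 h replicate 3 or 8 h replicate 2.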

How the results depend on the processing

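The size of the set followed its limits: 156 transcripts with a 1.5-fold minimum, 3 with a 3-fold minimum and 138 with a minimum mean of 1, and 39 to 62 without any 1 library. With a minimum mean of 10, CPM by library size alone, DESeq2 size factors, sums over an ID number or medians it held 28 to 49, of which medians shared 29 with the 40. At 24 h against 8 h, 2 were higher and 14 lower with library size alone, and 3 were higher and 4 lower at an adjusted p under 0.01. Without any 1 library, 3 to 6 were higher and 4 to 7 lower. The other settings gave 5 to 7 higher and 6 to 7 lower. For contrasts of the transcripts named by rule that were called, 370 of 408 refits kept the call and direction and 38 lost the call. Most of these contrasts were against 0 h, which the rule had used, and others served for the naming. The share kept was thus partly set in advance, and nothing is read from it. For contrasts not called, 4 of 102 refits made a call and 4 turned the sign without a call. The turned values, all at 24 h against 8 h, were those of S_Transcript_58338.p2 without 8 h replicate 1 (log2 fold change 0.0574, from -0.28) and S_Transcript_153286.p1 (from -0.10) without 24 h replicate 2 (0.0426), 24 h replicate 3 (0.0279) or 8 h replicate 2 (0.0792). Without any 1 library they ranged from -0.444 to 0.0574 and from -0.515 to 0.0792. Deviations of same-numbered libraries correlated between -0.217 and 0.099, and those of libraries with other numbers between -0.159 and 0.206. Only 1 of 9 libraries correlated best with one of its own number. No pairing by number was seen, but with 3 libraries a time this check is weak and cannot exclude one. With the replicate block 38 members were called higher at 8 h and 34 at 24 h against 0 h, and 6 were higher and 6 lower at 24 h against 8 h. The 3 libraries a time, and 18 members under 5 normalized CPM at 0 h, limit the precision. The cause of these changes was not tested.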
